A study of Mus musculus with 4 samples.

Results

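The replication-dependent histone genes are the 56 gene names, of 55367 in the deposited table, that follow the current mouse nomenclature for the clustered linker histones (H1f1 to H1f5) and core histones (H2ac, H2bc, H3c and H4c followed by a number). Within the table they were selected by name, but the set was chosen with earlier results of these data known. They comprise 5 linker histone H1 genes, 15 H2A, 14 H2B, 12 H3 and 10 H4 genes. Of these, 46 lie on chromosome 13 between positions 21715763 and 23934851 and 10 lie on chromosome 3 between 96219865 and 96270132 (GRCm38). A further 8 clustered histone genes are listed in the table under older symbols and fall outside the naming rule.

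Reads were measured in 4 RNA-seq libraries of endothelial cells sorted as CD31+CD45- from subcutaneous KPC tumours in C57BL/6 mice. KPC is the usual name for tumour cells from a mouse model of pancreatic cancer, here injected under the skin of the flank. Both groups carried the same tumour and received an antibody by intraperitoneal injection 48 hours before the cells were taken: 2 libraries are from mice given control rat IgG and 2 from mice given anti-CD93, an antibody to a surface receptor of endothelial cells. The comparison of the antibodies asks what blocking CD93 does to RNA levels in the tumour vessels. The labels do not give the age or sex of the mice, and they do not say whether the libraries of a group came from separate mice or from pooled ones, so a p-value here reflects no more than the scatter among the 4 libraries, which may be technical.

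Core histones H2A, H2B, H3 and H4 form the protein spool around which DNA is wrapped, and H1 binds the linker DNA between spools. A cell that copies its DNA must double its histones, and it does so from many short, mostly intronless gene copies that are transcribed mainly in S phase. Their mRNAs end in a conserved stem-loop instead of a poly(A) tail, bound by the protein SLBP, and are degraded when DNA synthesis ends. The libraries were made from total RNA, which by itself does not settle how far RNA without a poly(A) tail entered them.

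The gene models of the members show how far they carry this stem-loop. A 16-base match to the histone 3′ stem-loop was present in the models of 37 of 56 members, against 74 of 55450 genes of the same genome build. Of the other members, 13 have models with no 3′ UTR and 6 have a 3′ UTR without the element. In all, 8 versions of the 16 bases occurred among the members, and the commonest was held by 21 members of types H1, H2A, H2B and H3. H4 genes held other versions, of which the commonest occurred in 4 members. The versions below are shown because those of the H4 genes differ from those of the other types, which share some of theirs. The stem-loop is in capitals, with 5 flanking bases on either side, 5′ to 3′ on the gene's strand.

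H1f2: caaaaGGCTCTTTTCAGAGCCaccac
H2ac20: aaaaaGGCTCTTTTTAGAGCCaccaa
H3c6: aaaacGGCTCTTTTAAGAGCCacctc
H4c4: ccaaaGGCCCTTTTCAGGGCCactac
H4c9: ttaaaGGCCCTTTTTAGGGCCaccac
H4c2: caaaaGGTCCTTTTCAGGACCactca

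The version of H1f2 was also that of H1f3, H1f4, H2ac4, H2bc6, H3c1, H3c2 and H3c4. The version of H3c6 was shared with H3c3, H3c7, H2bc3 and H2bc12, so that it crosses histone types. H2bc4 was the member with the most reads among the H2B genes, and its model is spliced and holds no stem-loop.

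Promoter windows of 300 bases from RefSeq (GRCm38.p6), which lie mostly before the annotated start, matched 50 of the 56 members, 1 of them with 2 promoters. The letters CCAAT, the core of the CCAAT box, occurred on either strand in 45 of the 51 windows (88.2%), against 37.4% of 32851 promoters of the same length. They were present in every window of types H1, H2A, H2B and H3, and in 3 of 9 H4 windows. The letters TATAAA, the core of the TATA box, occurred in 58.8% of the members' windows and in 13.6% of all promoters. The octamer ATTTGCAT, which the factor Oct-1 is known to bind in H2B promoters, occurred in 6 of 14 H2A windows, 7 of 13 H2B windows and no window of another type, against 1.74% of all promoters. Windows of neighbouring H2A and H2B genes can overlap, and a match in the overlap is counted for both. The octamers of H2ac1 and H2bc1, of H2ac8 and H2bc8, and of H2ac12 and H2bc12 are the same bases. The 3 motifs were searched separately and their matches can overlap at the ends; a match describes the letters only. The windows of H2bc15 and H2ac15 are shown as 1 sequence because these neighbours point away from each other and their windows overlap. H3c6, the member with the smallest p, stands for the windows with several CCAAT matches, H2bc14 for those with the octamer, and H4c4 for the few H4 windows with CCAAT. Matches to the 3 motifs on either strand are in capitals.

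H2bc15, chr13:21753826-21754125, plus strand: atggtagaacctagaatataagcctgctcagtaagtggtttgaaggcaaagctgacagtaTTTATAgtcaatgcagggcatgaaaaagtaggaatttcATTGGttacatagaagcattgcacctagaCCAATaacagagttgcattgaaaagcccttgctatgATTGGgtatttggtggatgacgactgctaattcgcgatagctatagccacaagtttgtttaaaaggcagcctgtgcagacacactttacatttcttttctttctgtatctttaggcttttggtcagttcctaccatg
H3c6, chr13:23562336-23562635, minus strand: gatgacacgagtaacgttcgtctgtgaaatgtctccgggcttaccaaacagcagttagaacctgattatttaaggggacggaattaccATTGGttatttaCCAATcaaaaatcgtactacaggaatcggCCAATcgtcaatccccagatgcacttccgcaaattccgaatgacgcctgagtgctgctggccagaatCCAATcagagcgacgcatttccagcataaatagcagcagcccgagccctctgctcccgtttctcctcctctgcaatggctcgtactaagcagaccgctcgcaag
H2bc14, chr13:21721794-21722093, plus strand: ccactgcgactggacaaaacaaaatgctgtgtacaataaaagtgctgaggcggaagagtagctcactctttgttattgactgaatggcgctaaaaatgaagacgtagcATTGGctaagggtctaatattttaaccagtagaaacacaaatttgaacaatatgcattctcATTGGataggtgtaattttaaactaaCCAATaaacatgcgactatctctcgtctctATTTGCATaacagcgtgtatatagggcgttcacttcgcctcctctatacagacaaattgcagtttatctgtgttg
H4c4, chr13:23581318-23581617, plus strand: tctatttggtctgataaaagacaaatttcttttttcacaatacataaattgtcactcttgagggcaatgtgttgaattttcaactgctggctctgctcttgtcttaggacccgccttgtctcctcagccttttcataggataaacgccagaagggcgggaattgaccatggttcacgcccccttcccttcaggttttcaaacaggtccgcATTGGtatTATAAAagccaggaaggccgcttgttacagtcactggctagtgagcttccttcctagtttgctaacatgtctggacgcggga

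The libraries held 9364294 to 17813993 reads assigned to genes, and control IgG replicate 2 had the fewest. Across genes it correlated at 0.958 to 0.959 with the other 3 libraries, which correlated at 0.983 to 0.987 with one another. It had reads on 27718 genes, against 23796 to 25430 in the others. Olfactory and vomeronasal receptor genes, which are silent in most tissues, summed to 300.7 counts per 1e6 reads (CPM) in it and to 21.7 to 26.8 CPM in the others. All 10 endothelial markers, among them Pecam1, Cdh5 and Kdr, had reads, with sums of 9225 to 10458 CPM. Log2 ratios and fold changes of the members are therefore mostly also given without this library. In bulk RNA, fewer cells of a type and less RNA per cell cannot be told apart.

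Histone RNA was lower after anti-CD93 in the group means of all 5 types, and most of this distance lay in 1 control library. All members together summed to 733 and 1388 CPM in replicates 1 and 2 of control IgG and to 548 and 674 CPM in those of anti-CD93. Both control libraries were above both anti-CD93 libraries, and control IgG replicate 2 held 2.13 times the mean of the other 3. The means were 1060.5 ± 463 CPM for control IgG and 611 ± 89.2 for anti-CD93 (SD, n = 2 each), a log2 ratio of -0.80. Against control IgG replicate 1 alone the log2 ratio was -0.26, and against control IgG replicate 2 alone it was -1.18. These sums rest on 8989 to 12963 reads per library, and no test was run on them.

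By type, in the same order of libraries, H1 summed to 379, 733, 291 and 354 CPM, a log2 ratio of -0.79. H2A summed to 24.5, 57.7, 18.4 and 24.0 CPM, with a log2 ratio of -0.96, and H2B to 178, 261, 132 and 157 CPM, with a log2 ratio of -0.60. For each of these types the group values did not overlap, and anti-CD93 replicate 2 was the library nearest below control IgG replicate 1. H3 summed to 64.8, 137.9, 41.8 and 54.1 CPM, a log2 ratio of -1.08, and had the lowest ratio against control IgG replicate 1, at -0.43. H4 summed to 87.6, 198.3, 64.8 and 85.9 CPM, with a log2 ratio of -0.92. Against control IgG replicate 1 alone, the log2 ratio was -0.23 for H1, -0.21 for H2A, -0.30 for H2B and -0.22 for H4. The H4 levels of control IgG replicate 1 and anti-CD93 replicate 2 were nearly equal.

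**Figure D1:**
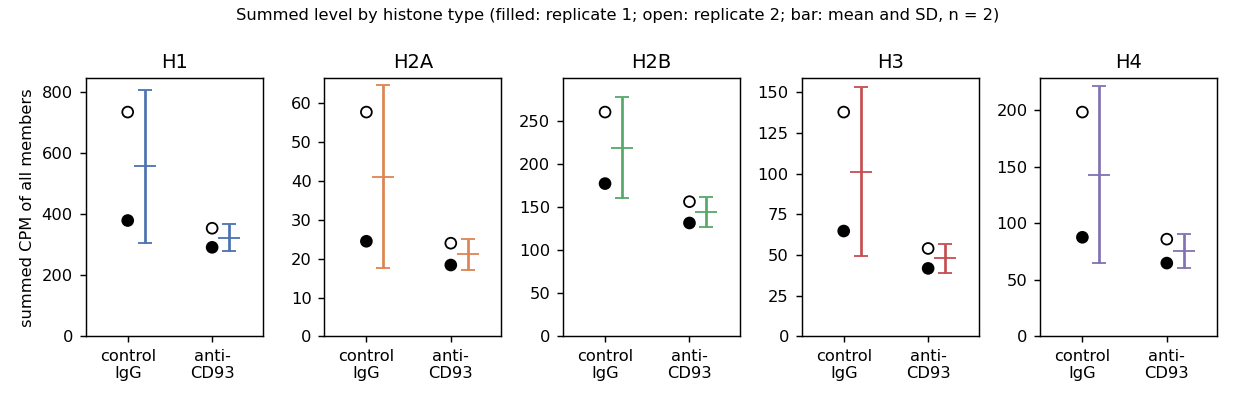
Summed level of all members of each histone type in CPM (y axis, each panel from 0) in the 2 groups (x axis); filled points are replicate 1, open points replicate 2, and the bars beside them the mean and SD of 2 libraries. In all 5 panels control IgG replicate 2 stands far above the other 3 libraries, and control IgG replicate 1 lies above both anti-CD93 libraries by a small distance.

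The share of H1 in the histone reads moved little between libraries. H1 genes took 51.7%, 52.8%, 53.1% and 52.4% of the members' reads in the 4 libraries, and H2A genes 3.34%, 4.16%, 3.35% and 3.56%. H2B took 18.8% in control IgG replicate 2 and 23.2% to 24.2% in the others, while H4 took 14.3% there and 11.8% to 12.8% elsewhere. Read per kilobase of exon, H2B gave 40.5% to 46.9% of the summed core histone RPKM (CPM per kilobase of exon). H4 gave 25.3% to 28.4%, H3 16.3% to 19.5% and H2A 9.91% to 11.7%. The exon models behind these shares differ in length, from 312 bases for H4c12 to 4446 for H2bc6. In the model of H2bc6, 1861 bases follow the stem-loop, so these shares depend on the models. The H2A share was the lowest in every library, as far as reads were counted. Every H2A member overlaps an exon of another gene, where reads were not counted, against 21 of all 56 members. This share may therefore understate H2A RNA.

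Chromosome 13 carried nearly all counted histone reads. Its 46 members summed to 720.5, 1360, 537 and 661 CPM and the 10 on chromosome 3 to 12.8, 27.8, 10.6 and 12.7 CPM. The 5 members that lie wholly inside another gene's exons, where reads were not counted, are all on chromosome 3. The sums therefore do not compare the levels of the 2 chromosomes. The log2 ratio was -0.80 on both chromosomes, and -0.27 on chromosome 13 and -0.14 on chromosome 3 against control IgG replicate 1 alone. Summed as RPKM, chromosome 3 had 10.8, 28.9, 10.5 and 13.4, and its log2 ratio turned from -0.73 to 0.15 against control IgG replicate 1 alone. On chromosome 13 the members fall into 3 blocks, separated by more than 200000 bases, of 11, 5 and 30 members. The first block, which holds H2bc15 and H4c12, had a log2 ratio of -1.08, the second -0.92 and the third, with H1f2, H1f4 and H2bc4, -0.76. Against control IgG replicate 1 alone these were -0.21, -0.62 and -0.26, so that the second block was then the lowest. Control IgG replicate 2 held 2.91, 1.91 and 2.06 times the mean of the other libraries in the 3 blocks.

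No member passed the test in the 4 libraries. Of the 56 members, 45 passed the filter on low counts and 0 had an adjusted p under 0.05 in edgeR's quasi-likelihood test with Benjamini-Hochberg adjustment over 16945 genes (adjusted p from 0.812 to 0.983), and 0% of all genes tested passed either. At an unadjusted p under 0.05, 16 members were lower, against 2.5% of all genes, and 0 were higher, against 1.99%. DESeq2 also called 0 members, against 0.015% of its genes, and had 13 lower at that level, against 1.6%. limma-voom called 0 members, against 0%, and also had 13 lower, against 2.35%. Without the filter on low counts edgeR called 2 of 51 members, H2bc15 and H3c6, against 0.144% of genes, and 26 were lower at an unadjusted p under 0.05, against 2.81%. The fitted log2 fold change was below 0 in 44 of 45 members, against 50.9% of genes, and its median was -0.90, against -0.0092 over all genes tested. In 26 members both anti-CD93 libraries were below both control libraries, against 19.7% of all genes, and in 0 members they were above them, against 20.1%. All members were read in the same 4 libraries, so these counts are not independent of one another.

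The counts moved with the library left out. Without control IgG replicate 1, 33 of 46 members passed the adjusted threshold, all lower, against 11.3% of genes called lower; 34 were lower at an unadjusted p under 0.05, against 17.8%, and the median was -1.31. Without control IgG replicate 2, 0 of 45 passed, against 0.0881%, 38 were lower and 7 higher, against 49.2% of genes lower, 6 were lower at an unadjusted p under 0.05 against 3.38% of genes, and the median was -0.32. Without anti-CD93 replicate 1, 0 passed, against 0%, 3 were lower at an unadjusted p under 0.05, against 0.692%, and the median was -0.71. Without anti-CD93 replicate 2, 0 passed, against 0.00541%, 14 were lower at an unadjusted p under 0.05, against 0.8%, and the median was -1.11. The lone library of a group is assumed in these fits to vary like the pair in the other group.

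Control IgG replicate 2 had the highest CPM of the 4 libraries in 39 of 45 tested members, against 38.7% of all genes, and held at least 2 times the mean of the other 3 in 31 members, against 5.78%. Control IgG replicate 1 was above both anti-CD93 libraries in 28 members, against 35.3% of genes. H2ac15 and H2bc15, which share a promoter region, had the top ratios of control IgG replicate 2 to the other 3, at 3.70 and 3.67. The 7 members with the lowest ratios were H2ac11 at 0.762, H4c9 at 0.980, H3c15 at 0.998, H2bc4 at 1.09, H2bc8 at 1.14, H4c11 at 1.16 and H2ac12 at 1.24. They were named after their values were seen, and 3 of them (H4c9, H2ac11 and H2ac12) lie in the 5-member second block of chromosome 13. Some of these ratios rest on few reads: 6 to 16 per library for H2ac11, 6 to 14 for H2ac12, 14 to 22 for H3c15 and 7 to 37 for H4c11. The mean level of the members was 12.4, 24.8, 9.04 and 11.4 RPKM in the 4 libraries, and that of the olfactory and vomeronasal receptors was 0.0575 RPKM in control IgG replicate 2 and 0.00391 to 0.00489 elsewhere.

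**Figure D2:**
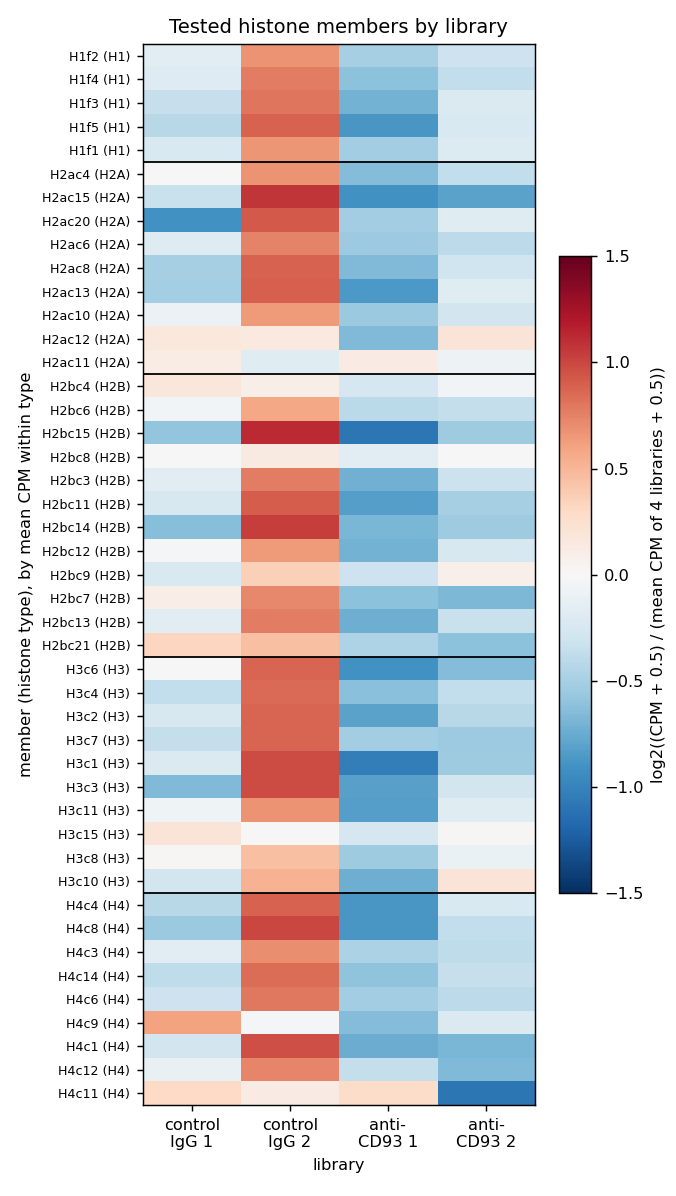
Level of each of the 45 tested members (rows, ordered by type and mean CPM) in each of the 4 libraries (columns), as log2 of CPM + 0.5 over the mean of the 4 libraries + 0.5; red is above the member's mean and blue below it. Control IgG replicate 2 is the highest library in 39 rows, and H2bc4, H3c15 and H4c9 are among the 6 rows where it is not.

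H1 genes encode the linker histones, and all 5 passed the filter. H1f2 (chr13:23738808-23740367) had the highest level per length of all members, at a mean of 116 RPKM, and no stretch of 150 bases in common with another gene. Its values were 163 and 290.2 CPM in the control libraries and 128 and 146 after anti-CD93. The groups did not overlap, and the log2 fold change was -0.72 (SE 0.27, unadjusted p = 0.0280, adjusted p = 0.812 in edgeR). H1f4 (chr13:23620629-23622558) had 136 and 264 CPM in control IgG and 102 and 120.5 after anti-CD93. These did not overlap either, at a log2 fold change of -0.85 (SE 0.30, adjusted p = 0.812 in edgeR), although 25.7% of its exons overlap those of H2bc6, where reads were not counted. H1f3 (chr13:23553262-23560686) had 46.0, 102.9, 35.6 and 50.3 CPM in the 4 libraries. Its anti-CD93 replicate 2 was above control IgG replicate 1, so the groups overlapped, at a log2 fold change of -0.79. Without control IgG replicate 2 the log2 fold changes of H1f2, H1f4 and H1f3 were -0.25, -0.30 and -0.10.

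H2A genes were the type with the fewest counted reads, and 9 of 15 passed the filter, 8 of them below 0. H2ac15 (chr13:21753435-21753827) had 4.00 and 11.5 CPM in control IgG and 2.54 and 2.76 after anti-CD93. The groups did not overlap, and its log2 fold change of -1.53 (SE 0.52, unadjusted p = 0.0195) was the lowest of the tested members; without control IgG replicate 2 it was -0.59. H2ac4 (chr13:23751126-23751598) had 6.04, 9.96, 3.67 and 4.58 CPM, with no overlap and a log2 fold change of -0.95, or -0.56 without control IgG replicate 2. H2ac20 (chr3:96220361-96220880), on chromosome 3, had 2.20 and 9.10 CPM in control IgG and 3.05 and 4.00 after anti-CD93. The control libraries lay on both sides of the anti-CD93 libraries. Its log2 fold change was -0.67 in 4 libraries and 0.67 without control IgG replicate 2, and neither passed the test.

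H2B genes had 12 of 14 members tested, all below 0, with 7 at an unadjusted p under 0.05, against 2.5% of all genes. H2bc4 (chr13:23684199-23692908), the spliced member without a stem-loop, had the most reads after the H1 genes H1f2 and H1f4 and differed in its pattern from most members. It had 88.2 and 83.5 CPM in control IgG and 65.8 and 76.2 after anti-CD93. The groups did not overlap, the highest library was control IgG replicate 1, and the log2 fold change was -0.27 (SE 0.18) with and -0.32 without control IgG replicate 2. This pattern did not follow the gene model. H2bc8, with the stem-loop, had a ratio of control IgG replicate 2 to the mean of the other libraries of only 1.14. In H1f1 and H2ac10, with a 3′ UTR without stem-loop, that ratio was 2.00 and 2.56. H2bc6 (chr13:23583670-23621124) had 19.8 and 30.7 CPM against 15.4 and 15.8, without overlap, at a log2 fold change of -0.69, or -0.35 without control IgG replicate 2. H2bc15 (chr13:21754123-21754503) had 12.9 and 43.4 CPM in control IgG and 9.04 and 13.5 after anti-CD93. Its high value is a single library: the groups overlapped, and the log2 fold change of -1.31 became -0.20 without control IgG replicate 2. Left without H2bc4, the members summed to 645, 1304, 482 and 598 CPM.

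H3 genes had 10 of 12 members tested, all below 0. H3c6 (chr13:23561534-23562369) had the smallest p of the members. Its values were 23.2 and 42.7 CPM in control IgG and 12.1 and 14.5 after anti-CD93, so that even the lower control library was above both anti-CD93 libraries. The log2 fold change was -1.30 (SE 0.31, unadjusted p = 0.00331, adjusted p = 0.812 in edgeR) and -0.80 without control IgG replicate 2 (adjusted p = 0.222 in edgeR). H3c1 (chr13:23761853-23762386) had 5.38 and 12.95 CPM in control IgG and 2.82 and 4.21 after anti-CD93, with no overlap, at -1.38 and -0.63 without that library. H3c2 (chr13:23752267-23752886) had 8.16, 18.2, 5.37 and 7.19 CPM and a log2 fold change of -1.06, or -0.39 without it. H3c4 (chr13:23575763-23577011) had 10.12, 24.3, 8.36 and 10.10 CPM; its control IgG replicate 1 was almost equal to anti-CD93 replicate 2, and its log2 fold change went from -0.89 to -0.14 without control IgG replicate 2.

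H4 genes had 9 of 10 members tested, all below 0. H4c4 (chr13:23581598-23582735) and H4c8 (chr13:23531050-23531519) had the highest levels per length of the type, with means of 44.6 and 42.5 RPKM. H4c4 had 37.9 and 94.5 CPM in control IgG and 27.6 and 43.2 after anti-CD93, and H4c8 had 13.4 and 40.6 against 10.7 and 15.3. In both the groups overlapped and 1 control library was high; the log2 fold changes were -0.90 and -1.05, and -0.11 and -0.05 without that library. H4c3 (chr13:23697635-23698454) had 10.7 and 19.7 CPM against 8.53 and 9.08, without overlap, at a log2 fold change of -0.78, or -0.28 without control IgG replicate 2. H4c9 had 7.67 and 4.82 CPM against 2.94 and 4.14, with control IgG replicate 1 the highest library.

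**Figure D3:**
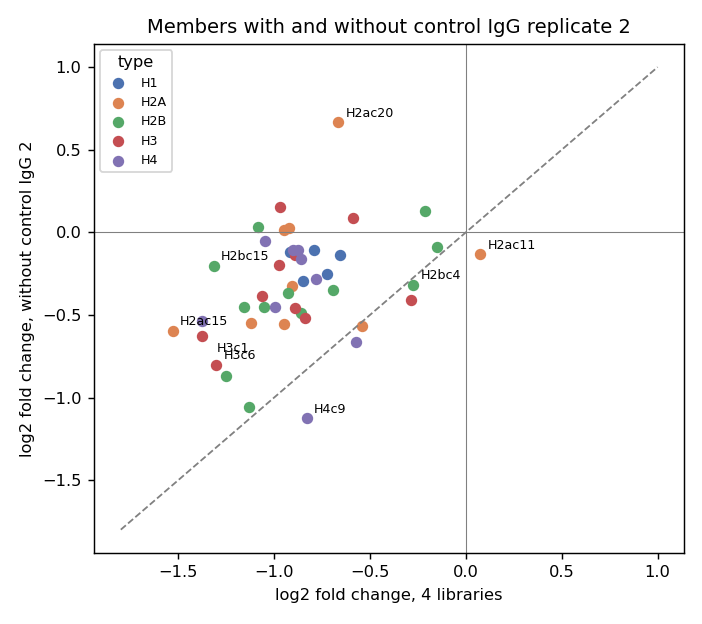
Fitted log2 fold change (anti-CD93 over control IgG) of each tested member in all 4 libraries (x axis) and without control IgG replicate 2 (y axis), coloured by histone type; the dashed line marks equal values. Most points lie above the line and below 0, from H3c6 at -1.30 and -0.80 to H4c8 at -1.05 and -0.05, while H2ac20 crosses to 0.67.

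The copies of histone genes resemble one another, and the authors' counting left out reads that map to several places or lie over several genes. In 11 members no 150-base window of the exons was found in another gene, and in 18 more than 50% of the windows were. Among the 10 tested members of the first kind all 10 were below 0, with a median of -0.89. Among the 28 tested members with under 25% of windows shared all 28 were, with a median of -0.90. Without control IgG replicate 2, 8 of the 10 and 23 of the 28 were below 0, with medians of -0.11 and -0.27. The 5 members that lie wholly inside the exons of another gene (H2ac18, H2ac19, H2bc18, H3c13 and H3c14) had 0 reads in every library, so nothing can be said of their levels. H2ac1 and H2bc1, the testis-specific pair, had 0 to 3 reads per library, and H2ac14, annotated as a pseudogene, 0 to 1. The last 3 untested members were H2ac7 with 6 to 9 reads, H4c2 with 0 to 2 and H2ac21 with 0 to 1. Tested members with the stem-loop in their model had a median log2 fold change of -0.88 (32 members), those whose model has no 3′ UTR -0.97 (8), and those with a 3′ UTR without stem-loop -0.65 (5). Without control IgG replicate 2 these medians were -0.29, -0.33 and -0.55. The 8 clustered histone genes under older symbols summed to 17.3, 24.9, 12.99 and 12.7 CPM, of which 5 were tested and all 5 were below 0.

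Histone variants, which are made outside S phase mainly from polyadenylated mRNA, were not high in control IgG replicate 2 as a sum. The 11 variants summed to 841, 828, 761 and 768 CPM, and 6 of 11 tested were below 0, with a median log2 fold change of -0.10 and 0 past the adjusted test. Taken singly, 7 of the 11 were highest in control IgG replicate 2, against 38.7% of all genes. Among them H2ax, named after its values were seen, had 10.8, 20.1, 11.02 and 8.86 CPM. Its groups overlapped, at a log2 fold change of -0.63 (SE 0.34). H3f3b, which encodes variant H3.3, had 398, 363, 349.8 and 358 CPM, at a log2 fold change of -0.10. H1f0, the linker histone of resting and differentiated cells, had 143 and 137 CPM in control IgG and 107 and 106 after anti-CD93. It was the 1 variant with an unadjusted p under 0.05 and had no high library, at a log2 fold change of -0.39 (SE 0.17, adjusted p = 0.812 in edgeR). The ratio of summed histone CPM to summed variant CPM was 0.872, 1.68, 0.720 and 0.878.

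Genes that transcribe and process histone mRNA summed to 1256, 1361, 1206 and 1227 CPM. Of 25 listed, 24 were tested and 15 were below 0, with a median log2 fold change of -0.09, and 0 had an unadjusted p under 0.05 in either direction. Slbp, which binds the stem-loop, had 28.3, 22.1, 29.8 and 25.9 CPM, and Npat, the activator of histone gene transcription, 30.9, 20.1, 27.9 and 26.4 CPM. Both were lowest in control IgG replicate 2, the library in which the histone members were highest. Srrt, a factor that links capped RNA to processing, had 168, 198, 162 and 169 CPM, and Upf1, the helicase that acts in histone mRNA decay, 154, 198, 139 and 152 CPM.

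Histone chaperones, which carry new histones to DNA, had 13 of 19 tested members below 0 and a median of -0.13. Chaf1a, a subunit of the chromatin assembly factor at the replication fork, had 21.5 and 34.3 CPM in control IgG and 16.04 and 16.6 after anti-CD93. Its groups did not overlap, at a log2 fold change of -0.77 (SE 0.27, adjusted p = 0.812 in edgeR). Atrx, a remodeller that works with Daxx to deposit H3.3, was higher after anti-CD93 in both libraries, with 511 and 358 CPM against 560.02 and 557 and a log2 fold change of 0.36 that did not pass the test. Supt6, an elongation factor and histone chaperone, had 209, 237, 230.04 and 222 CPM, at a log2 fold change of 0.018.

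S phase genes as a sum were also highest in control IgG replicate 2, and the sum of G2/M genes was nearly equal in the 4 libraries. The 30 S phase genes summed to 763, 916, 665 and 677 CPM, 26 of 30 were below 0, against 50.9% of all genes, and the median log2 fold change was -0.32. At an unadjusted p under 0.05, 5 were lower, against 2.5% of genes, and 0 higher, against 1.99%, and 0 passed the adjusted test. The log2 ratio of the sum was -0.32, and -0.19 against control IgG replicate 1 alone. Mcm3, a subunit of the replicative helicase, had 74.9 and 107.7 CPM against 61.8 and 63.0, at a log2 fold change of -0.55, and Mcm6, another subunit, 82.6 and 94.0 against 81.5 and 74.9, at -0.17. Pcna, the sliding clamp of DNA polymerase, had 57.5, 49.1, 49.7 and 49.4 CPM and was not high in control IgG replicate 2. The 20 G2/M genes summed to 759.9, 753, 758 and 754 CPM with 10 of 20 below 0. Mki67, a marker of cycling cells, had 253.5, 243.7, 254.8 and 254.0 CPM, and Top2a, the topoisomerase that untangles chromosomes before division, 111, 108, 111 and 109.9. The ratio of summed histone CPM to summed S phase CPM was 0.961, 1.52, 0.824 and 0.995, so that control IgG replicate 1 and anti-CD93 replicate 2 were at a like ratio.

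**Figure D4:**
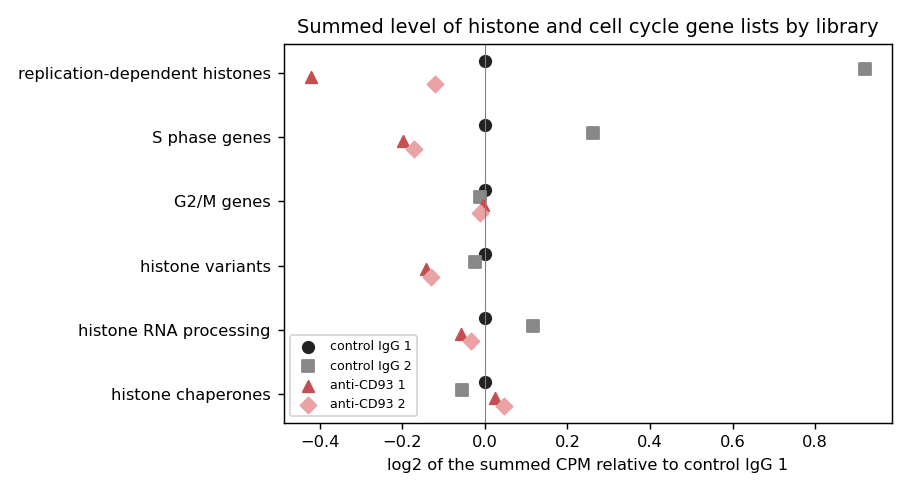
Summed CPM of the histone members and of 5 related gene lists (rows) in each library, as log2 relative to control IgG replicate 1 (x axis, 0 for that library). The histone row spreads from anti-CD93 replicate 1 on the left to control IgG replicate 2 on the right, the S phase row repeats this order over a shorter span, and the 4 points of the G2/M row fall together.

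Markers of other cells that could pass the sort also differed between libraries. Fibroblast markers summed to 2260, 2936, 1889 and 2354 CPM, the same order of libraries as the histone members except that anti-CD93 replicate 2 was above control IgG replicate 1. Tumour epithelial markers summed to 1745, 2530, 2441 and 2049 CPM, and leukocyte markers to 21.05, 45.0, 41.5 and 35.5 CPM, both lowest in control IgG replicate 1. Among the epithelial markers, Epcam, an adhesion protein, had 21.7 and 23.4 CPM in control IgG and 34.1 and 41.1 after anti-CD93, at a log2 fold change of 0.74 (unadjusted p = 0.00798, adjusted p = 0.812 in edgeR). Cdh1, which encodes E-cadherin, had 216 and 210.4 CPM against 351 and 290.03, at a log2 fold change of 0.59 (unadjusted p = 0.0108, adjusted p = 0.812 in edgeR). Both were higher in both anti-CD93 libraries, and were named after their values were seen. Cldn7, of the same list, was lower in both, with 1.79 and 1.61 CPM against 0.508 and 0.581. Its log2 fold change was -1.63 (unadjusted p = 0.0403, adjusted p = 0.812 in edgeR), on 8 to 22 reads per library. Of the 10 epithelial markers tested, 6 were above 0 and 4 below, with a median log2 fold change of 0.033. Pericyte markers summed to 495, 472, 544 and 415 CPM. None of the 36 markers of these 4 lists was at 0 in all libraries. The part of these cells, and of whatever set control IgG replicate 2 apart, in the histone levels was not tested.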

How the data were processed

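Raw read counts of 55367 gene names were deposited, made by the authors with featureCounts 2.0.1 on GENCODE vM25 (GRCm38), per the file headers; STAR 2.7.5b and DESeq2 1.28.1 are named in the submitters' processing notes. Per the file headers, no option for pairs, strand, multi-mapping or overlapping features was set: mates were counted singly, antisense genes cannot be told apart, and reads shared by copies or by overlapping genes were left out. A second deposited table held the same counts (0 of 221468 cells differed) and was not used further.

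The filterByExpr function with its minimum count set to 10 kept 16945 genes, which were scaled by TMM and compared without covariates by the robust quasi-likelihood test of edgeR 4.0.16 in R 4.3.3, with Benjamini-Hochberg adjustment and a threshold of 0.05. Alternatives used DESeq2 1.42.0, limma-voom 3.58.1, other scalings and filters, a replicate block and left-out libraries. The main edgeR fit was also run on simulated counts of 16945 genes, in which no library was set apart as control IgG replicate 2 is. It called 35 of 100 genes changed 2-fold and 68 of 100 genes changed 4-fold, with 14 false calls. CPM use TMM-scaled library sizes and RPKM also exon length. Gene models came from GENCODE vM21 of the same build, where all 56 members matched. Shared sequence was measured in windows of 150 bases, the read length. The subsets of members by shared sequence were chosen after seeing the data.

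Members and lists were chosen with earlier results of these data known. Values per library are given for the 3 members of each type with the highest mean CPM and the 3 with the smallest p. In the variant, processing, chaperone, S phase and G2/M lists, the 2 genes with the highest mean CPM are given. Slbp, Npat, Pcna and Mki67 are given as well. Marker lists and the histones under older symbols are given mainly as sums. H4c9, Chaf1a, H2ax, Epcam, Cdh1, Cldn7 and the 7 members by ratio were added after their values were seen. The 9364294 to 17813993 reads per library and 2 libraries per group limit the precision.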

Additional observations from a re-analysis of the deposited data

How the results depend on the processing

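Direction was the same under the alternatives run for the summed CPM by type and by chromosome, where the log2 ratio ran from -1.49 to -0.14 over the libraries left out, and for the median over members (-1.31 to -0.32); on the RPKM scale, chromosome 3 turned to 0.15 against control IgG replicate 1 alone. Counts were less steady. Leaving out 1 library gave 0 to 33 members past the adjusted test and 3 to 34 lower members at an unadjusted p under 0.05. Without the count filter 2 members passed (H2bc15 and H3c6, of 51 tested, against 0.144% of genes) and 26 were lower at an unadjusted p under 0.05. The labels number the libraries of both groups, but the replicate differences of the groups correlated at -0.0225 over 16945 genes, so the numbers do not show a pairing. This value cannot exclude a pairing, because control IgG replicate 2 stood apart from the other libraries and weighs on the control difference. With a replicate block 1 member passed (H3c6, log2 fold change -1.24, against 0.0826% of genes, adjusted p = 0.0230 in edgeR). No member passed under the other scalings, a minimum count of 50, DESeq2, limma-voom or a threshold of 0.1. Of 208 values for 16 single members, 189 kept direction and side of the threshold, 18 passed it in addition, and H2ac20, which ran from -1.34 to 0.67 over the libraries left out, turned to 0.67 (adjusted p = 0.758 in edgeR) without control IgG replicate 2. The cause was not tested.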
